A study of Rattus norvegicus with 8 samples.

Results

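The genes described here are 7 enzymes of mitochondrial fatty acid oxidation (Acads, Acadm, Acadl, Acadvl, Cpt1a, Cpt2 and Hadhb) and 2 peroxisome proliferator-activated receptors (Ppara and Pparg), measured in cultured fetal rat testes exposed to mono-(2-ethylhexyl) phthalate (MEHP). They were chosen by name, and every probe with 1 of these gene names was taken, which gave 10 probes for 9 of the 18385 gene names on the array. Whole testes of Sprague-Dawley rat fetuses, explanted at mid-gestation, had been cultured for 72 h with MEHP at 1 µM (1 testis) or 10 µM (3 testes, each from a different litter) or with the vehicle, DMSO, which all cultures contained. RNA of each MEHP-treated testis was hybridized on 2 Agilent Whole Rat Genome arrays together with a pool made from 3 vehicle-treated testes, with the dyes exchanged between the 2 arrays, so that 8 arrays shared 1 control sample. A testis explant holds Leydig, Sertoli, germ, peritubular and other cells, and in RNA from the whole organ fewer cells of a type and less RNA per cell cannot be told apart.

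MEHP is the monoester released from the plasticizer di-(2-ethylhexyl) phthalate and is known to activate peroxisome proliferator-activated receptors (PPARs). These nuclear receptors bind DNA as heterodimers with retinoid X receptors, and in rodent liver their activation is known for raising the enzymes of fatty acid oxidation, those of the peroxisome above all. In the mitochondrion, Cpt1a on the outer membrane joins long-chain fatty acids to carnitine, and Cpt2 on the inner membrane transfers them back to coenzyme A. An acyl-CoA dehydrogenase then takes the first step of beta-oxidation, with Acadvl acting on very long, Acadl on long, Acadm on medium and Acads on short chains. Hadhb is the thiolase subunit of the trifunctional protein that carries out the last steps on long chains. Peroxisomes hold a beta-oxidation pathway of their own, with separate enzymes.

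The question put to these genes was whether enzymes of this pathway were higher or lower in the MEHP-treated testes than in the vehicle pool, and whether mitochondrial and peroxisomal enzymes behaved alike. All ratios are log2 of MEHP over vehicle, so that 1 is a doubling and -1 a halving. According to the labels MEHP RNA carried Cy3 on each of the 8 arrays, but the methods describe a dye exchange, and the first hybridization of each pair was therefore read with MEHP on Cy3 and the repeat with MEHP on Cy5. The direction of every ratio is likely rather than certain, since the opposite assignment would turn every sign. As read here, the Leydig cell genes Cyp17a1, which encodes a steroidogenic enzyme, and Insl3, a peptide hormone of testis descent, were below 0 on all 6 arrays at 10 µM, with means of -1.96 and -1.78 over the 3 testes. The red over green ratios of the 2 arrays of a testis correlated, across the tested probes, with Pearson r between -0.54 and -0.23 at 10 µM and with r = 0.16 at 1 µM. Over 3668 brighter probes r lay between -0.82 and -0.50 for all 4 testes. Probes share arrays and dyes and are not independent replicates.

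Testis 2 at 10 µM stood apart from the others. In the MEHP channel, 0.249% and 1.54% of the 43379 probe spots on its 2 arrays rose well above background, against 7.8% to 29.8% on the other 6 arrays. The share in the vehicle channel lay between 9.23% and 31.9% on all 8 arrays. Over the 9913 probes tested at 10 µM, testes 1 and 3 had median ratios of 0.09 and -0.20, whereas testis 2 had a median of -1.13. Ratios of testis 2 are therefore given apart, and counts of called genes at 10 µM are given with and without this testis. Leydig and Sertoli cell markers were present in the vehicle pool, since 6 of 8 Leydig markers and 7 of 8 Sertoli markers were well above background there on at least 1 array. Of 3 markers of adipocytes, cells in which Pparg is a master regulator, Cfd was well above background in the vehicle channel on 5 arrays, and Adipoq and Lep on none.

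The 250 bases before the annotated start of a gene are shown for 4 of the enzymes, because PPARs act through regulatory DNA. In testes 1 and 3, Acads and the brighter probe of Acadvl had mean ratios above 0, and Acadm and Cpt2 below 0. A dimmer probe of Acadvl was at -0.86 in testis 3, and neither Acads nor Acadvl was called. They are RefSeq sequence of the rat assembly GRCr8, written 5′ to 3′ along each gene, and capitals mark the half-site AGGTCA on either strand.
Acads, chr12:47154083-47154332, plus strand: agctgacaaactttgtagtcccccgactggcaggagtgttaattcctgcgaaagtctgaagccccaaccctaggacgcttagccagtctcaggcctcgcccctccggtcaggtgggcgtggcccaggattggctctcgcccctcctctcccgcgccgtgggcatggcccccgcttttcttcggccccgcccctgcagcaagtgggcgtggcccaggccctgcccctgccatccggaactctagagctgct
Acadvl, chr10:55236706-55236955, minus strand: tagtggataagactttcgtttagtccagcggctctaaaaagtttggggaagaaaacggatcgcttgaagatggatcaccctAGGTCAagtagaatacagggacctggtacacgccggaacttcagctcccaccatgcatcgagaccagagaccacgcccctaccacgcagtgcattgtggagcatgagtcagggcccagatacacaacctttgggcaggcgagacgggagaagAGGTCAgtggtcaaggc
Acadm, chr2:245542865-245543114, minus strand: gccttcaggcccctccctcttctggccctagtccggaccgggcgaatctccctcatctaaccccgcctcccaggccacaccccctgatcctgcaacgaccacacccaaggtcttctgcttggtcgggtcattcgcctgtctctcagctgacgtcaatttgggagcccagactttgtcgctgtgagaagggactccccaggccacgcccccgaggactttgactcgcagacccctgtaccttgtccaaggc
Cpt2, chr5:127910819-127911068, minus strand: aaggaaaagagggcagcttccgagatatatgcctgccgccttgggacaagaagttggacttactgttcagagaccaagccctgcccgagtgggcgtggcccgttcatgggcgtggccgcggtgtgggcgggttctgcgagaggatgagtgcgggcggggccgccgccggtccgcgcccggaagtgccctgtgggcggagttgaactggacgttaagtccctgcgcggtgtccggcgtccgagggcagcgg
The complete PPAR element was searched as AGGTCANAGGTCA, which itself contains the half-site, on both strands. The table of promoters held 8 of the 9 genes with 9 starts, Acadl being the one not listed. Exact matches alone were counted. None of the 9 windows held an exact copy of the complete element, which was present in 0.0508% of all 33469 windows of this length. The half-site was present in 14.1% of all windows and in 1 of the 9, that of Acadvl, which held it at 169 and at 17 bases before the start. The half-site at 17 bases is followed by gtggtca, so that this stretch differs from the complete element at 1 base. The share of windows with such a near match was not counted. A match to these letters is a description of the sequence and not a binding site.

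The enzymes other than Hadhb gave signals that could be tested at 10 µM, and the receptors did not. Acads, Acadl and Acadvl were well above background in the vehicle channel of all 8 arrays, with processed signals of the vehicle pool between 1767 and 9190 for Acads, between 1676 and 8220 for Acadl and between 629.8 and 3293 for the brighter probe of Acadvl. Acadm and Cpt2 were well above background in the vehicle channel on 4 of the 6 arrays at 10 µM and on both arrays at 1 µM. Cpt1a was so on 4 of the 6 arrays at 10 µM and on 1 at 1 µM. In the MEHP channel at 10 µM, Acadm, Cpt1a and Cpt2 were each well above background on 2 of the 6 arrays. These 3 genes thus entered the test through the vehicle channel, which reached this level on more arrays. In testis 1 each was well above background for vehicle alone on the first array and for MEHP alone on the repeat. In both cases that channel was the one read as Cy5. Hadhb reached this level in the vehicle channel on 1 of the 6 arrays at 10 µM and in the MEHP channel on none, so it was not tested at 10 µM. Signals of different probes cannot be ranked against each other, because each probe binds with its own strength.

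**Figure D1:**
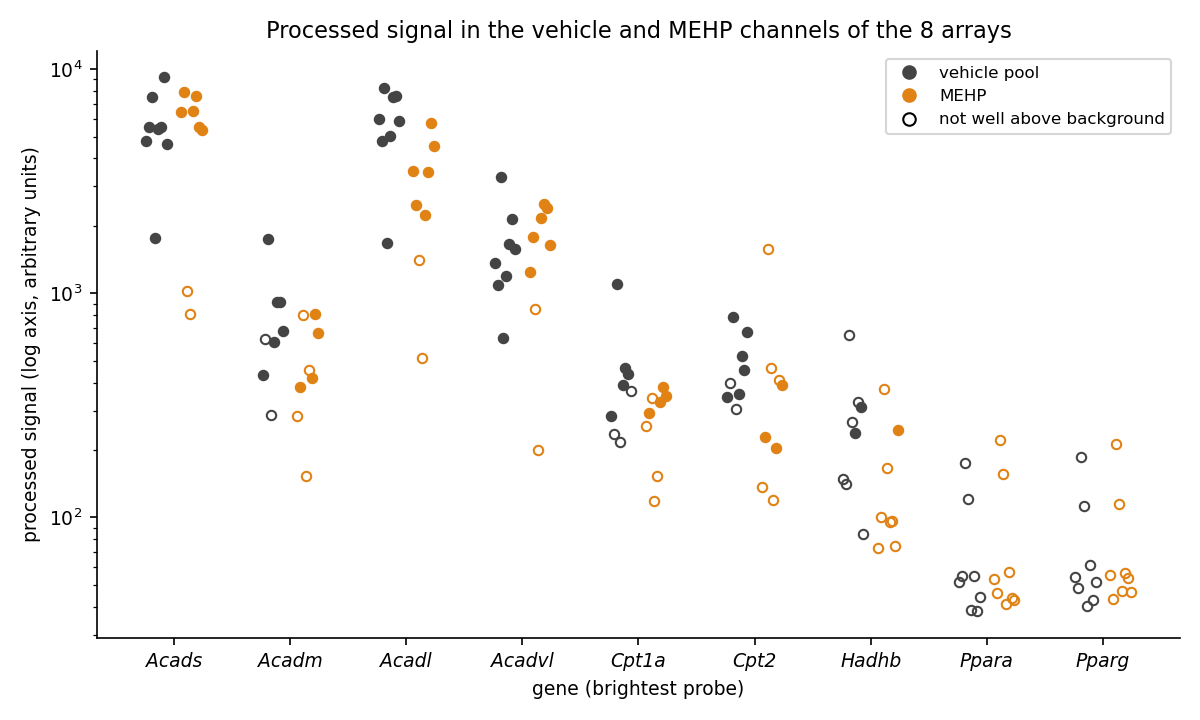
Processed signal (log axis, arbitrary units) of the brightest probe of each gene in the vehicle channel (grey) and the MEHP channel (orange) on the 8 arrays, with open points for channels not well above background. Acads, Acadl and Acadvl have filled vehicle points on all 8 arrays, and Ppara and Pparg have open points alone.

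Ppara, the receptor that governs fatty acid oxidation in liver, and Pparg, that of fat cells, were each printed as 10 spots on every array, which gave 80 spots per gene. None of the 80 spots of either gene was well above background in either channel. Both channels of 58 of the 80 Ppara spots and of 69 of the 80 Pparg spots had been replaced by the scanner software with a substitute value for a signal too low to use, and each of these spots has a ratio of exactly 0. The mean of the 10 spots per array lay between -0.16 and 0.29 for Ppara and between -0.08 and 0.12 for Pparg. These ratios near 0 are not a measurement of an unaltered level, and a change in either receptor was not detectable here. Single spots of Ppara ranged from -1.10 to 1.47.

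Cpt1a, the entry step of the carnitine route, was printed as 10 spots as well, and in contrast 45 of its 80 spots were well above background in the vehicle channel and 35 in the MEHP channel. Its mean ratios were -0.19 and 0.51 on the arrays of testis 1, -1.68 and -0.81 on those of testis 2, -1.42 and -0.48 on those of testis 3, and -0.29 and -0.08 on those of the testis at 1 µM. The repeat hybridization gave the higher value in each of the 4 testes, and so did the median over all probes tested at 10 µM. That median was -0.20 and 0.40 in testis 1, -1.70 and -0.67 in testis 2 and -0.72 and 0.17 in testis 3. At 1 µM it was -0.12 and 0.19. The spread between the 10 spots of an array was wide, with an SD between 0.28 and 0.84 at 10 µM. The mean at 10 µM was -0.68 ± 0.74 (SD, n = 3; adjusted p = 0.552 by limma), and this difference from vehicle did not exceed the spread between testes.

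**Figure D2:**
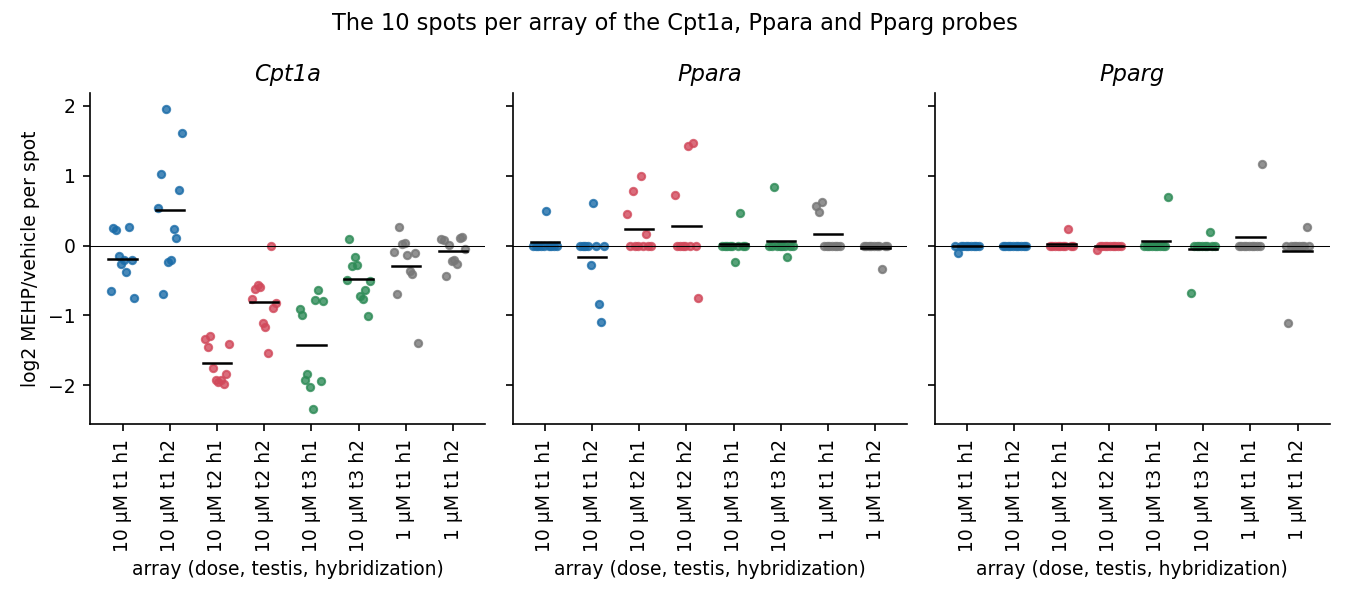
Log2 MEHP/vehicle of each of the 10 spots of the Cpt1a, Ppara and Pparg probes on the 8 arrays (t, testis; h, hybridization), with a bar at the mean of the 10 spots. Cpt1a spots spread around means between -1.68 and 0.51, whereas most Ppara and Pparg spots lie at exactly 0 because neither channel gave a usable signal.

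Of the 6 enzyme genes tested at 10 µM, none passed the adjusted threshold of 0.05 with 3 testes, where 2.24% of all tested probes passed. With an unadjusted p under 0.05, 1 of the 6 passed (Acadl), against 17.6% of all tested probes. Without testis 2, 1 of the 6 passed the adjusted threshold (Cpt2), against 17.5% of all tested probes and 10.0% in its direction. Of the 6, 2 were below 0 in each of the 3 testes (Acadm and Acadl), against 36.2% of all tested probes, and none was above 0 in each, against 3.78%. In testes 1 and 3 together, 3 of the 6 were below 0 in both (Acadm, Acadl and Cpt2), against 37.9% of all tested probes. Above 0 in both were 2 (Acads and Acadvl, by its brighter probe), against 36.0%. Each of these shares of the 6 genes lay near that over the whole array. Acadm, Cpt1a and Cpt2 entered the test through the vehicle channel, where they were more often well above background, and the counts are a description.

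The acyl-CoA dehydrogenases differed among themselves. Acadl, which acts on long chains, had ratios of -0.77 and -0.94 in testis 1, -2.55 and -1.70 in testis 2 and -1.17 and -1.12 in testis 3. All 6 values lay below 0, and the 4 of testes 1 and 3 came from signals well above background in both channels. The mean was -1.37 ± 0.67 (SD, n = 3; unadjusted p = 0.0149 and adjusted p = 0.156 by limma), and -0.999 when testis 2 was left out (adjusted p = 0.0613 by limma). When arrays were centred on their medians, which removes the low median of testis 2, the values of the 3 testes were -0.96, -0.94 and -0.87 (adjusted p = 0.135 by limma). The value of testis 2 rests on MEHP signals not well above background on either array.

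Acadm, which acts on medium chains, also had all 6 values below 0, at -0.62 and -0.71 in testis 1, -1.12 and -0.90 in testis 2 and -0.41 and -1.14 in testis 3. Its 3 testes lay close together, with a mean of -0.82 ± 0.18 (SD, n = 3; adjusted p = 0.454 by limma). In the MEHP channel it rose well above background on 2 of these arrays. It thus entered the test through the vehicle channel, where it did so on 4. After centring, the values were -0.76, 0.18 and -0.50, so that testis 2 no longer lay below 0.

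Acads, the short-chain enzyme, went the other way in testes 1 and 3, where its 4 values lay between 0.26 and 0.53. In testis 2 it was at -2.88 and -1.12, with the MEHP signal not well above background on either array. The mean of -0.39 ± 1.40 (SD, n = 3; adjusted p = 0.775 by limma) did not exceed the spread between testes, and without testis 2 it was 0.42 (adjusted p = 0.407 by limma). Other scalings of the 3 testes also turned its sign, with a mean of 0.15 after normexp background correction and loess normalization.

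Acadvl, the very-long-chain enzyme, has 2 probes on the array. The brighter probe, A_42_P606073, gave -0.12 and 0.70 in testis 1, -1.94 and -1.65 in testis 2 and 0.87 and 0.58 in testis 3. The mean of the 3 was -0.26 ± 1.35 (SD, n = 3; adjusted p = 0.858 by limma) and 0.51 without testis 2 (adjusted p = 0.319 by limma). The dimmer probe, A_44_P498890, gave -0.75 and 1.69 in testis 1, -1.44 and -0.09 in testis 2 and -2.00 and 0.28 in testis 3. The probes disagreed in testis 3, where the brighter was at 0.72 and the dimmer at -0.86. The 2 dyes of the dimmer probe disagreed in sign in testes 1 and 3, and 2 of its 6 MEHP signals at 10 µM were well above background.

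Cpt2, which returns the fatty acid to coenzyme A inside the mitochondrion, was the enzyme in which testis 2 went against the others in the upward direction. Its ratios were -1.33 and -0.79 in testis 1 and -1.58 and -1.36 in testis 3, but 1.01 and 0.61 in testis 2. The mean with 3 testes was -0.57 ± 1.22 (SD, n = 3; adjusted p = 0.631 by limma). Without testis 2 it fell by 1.27 on the log2 scale (adjusted p = 0.0282 by limma, n = 2), the single call among the 6 genes. Its MEHP channel reached a level well above background on just 2 arrays at 10 µM, the repeat hybridizations of testes 1 and 3. In testis 2 its MEHP signals were 1583 and 463.7, with neither well above background.

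Hadhb, the thiolase subunit, had ratios between -1.76 and -0.49 on the 6 arrays at 10 µM, but its MEHP signal was not well above background on any of them. Measured against the lowest signal that counted as well above background, the vehicle signal gave no lower limit for a fold, so none is stated. At 1 µM its 2 arrays gave -2.06 and 1.54.

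**Figure D3:**
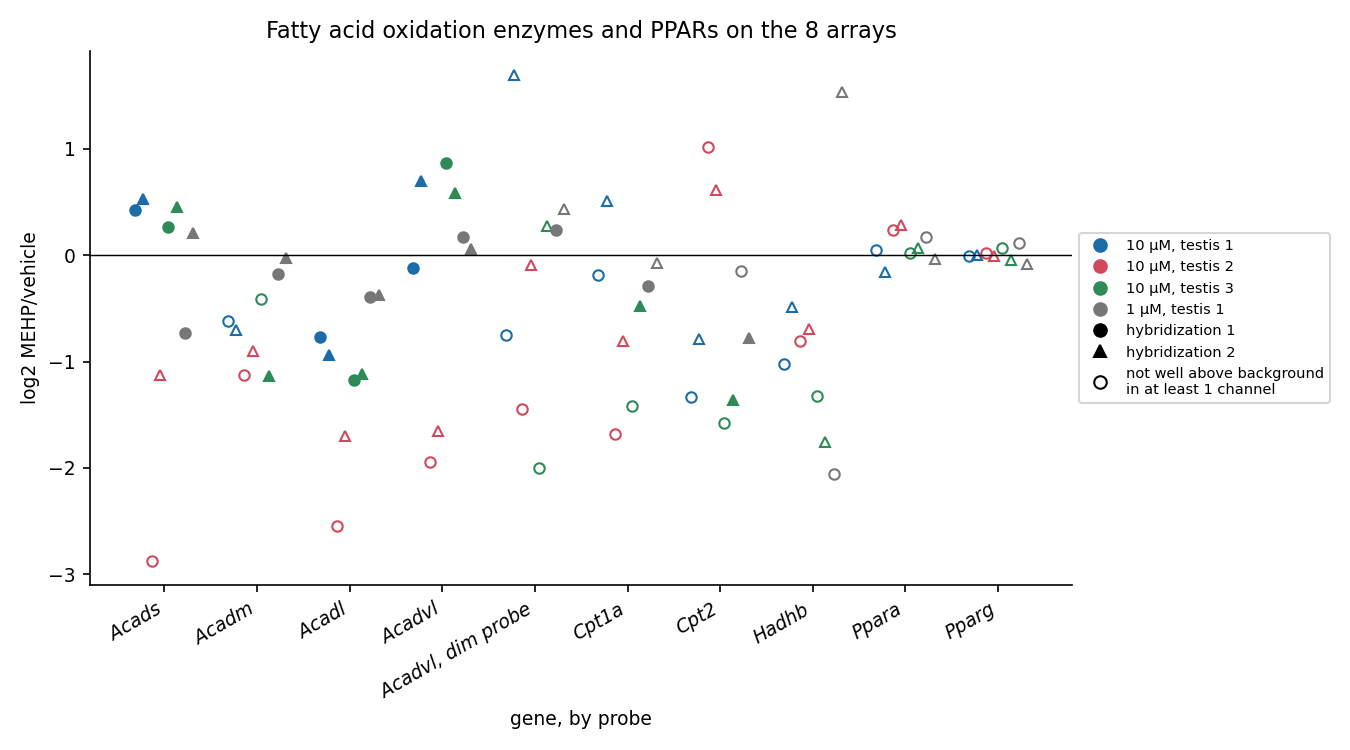
Log2 MEHP/vehicle of all 10 probes on the 8 arrays, coloured by testis, with circles for the first and triangles for the repeat hybridization, and filled where both channels were well above background. Acadl and Acadm lie below 0 on all 8 arrays, Acads and Cpt2 differ in sign between testis 2 and testes 1 and 3, and Ppara and Pparg lie near 0 without usable signal.

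At 1 µM a change was counted where both hybridizations of the 1 testis showed at least 1.5-fold with 1 sign, and none of the 7 enzyme genes measured was counted, against 7.01% of 13174 probes, 4.05% higher and 2.96% lower. Acadl was at -0.39 and -0.38, the closest agreement of the 2 hybridizations among the enzymes, and Acadm was at -0.18 and -0.03. Cpt2 was at -0.15 and -0.78, Acads at -0.73 and 0.21, and the brighter Acadvl probe at 0.17 and 0.06. With 1 testis there is no spread at this dose and no test of it against vehicle.

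Between the doses, the 6 tested genes were compared with limma over the 4 testes, on the assumption that the single testis at 1 µM varies like those at 10 µM. No member passed (adjusted p = 0.9995 for each), and neither did any of 9785 probes (0%), of which 0.266% had an unadjusted p under 0.05. Over the brightest probes, the largest differences were those of Acadl, at -0.99 (95% interval -3.20 to 1.22), and Acadm, at -0.71 (SE 1.13), so changes of several fold in either direction are within the error and the absence of calls says little about the doses. Testis 3 at 10 µM and the testis at 1 µM were hybridized on the same slide. Within this slide, testis 3 minus the testis at 1 µM was -1.01 for Cpt2, -0.76 for Acadl, -0.76 for Cpt1a, -0.67 for Acadm and 0.62 for Acads. For Acadvl it was 0.61 with the brighter and -1.19 with the dimmer probe. Both doses share the vehicle pool.

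The wider mitochondrial pathway held 19 listed genes, of which 18 were tested at 10 µM. None passed with 3 testes, against 2.24% of all tested probes. Of the 12 not counted above, 7 were below 0 in each testis. Of all 18, 9 were below 0 in each testis, against 36.2%, and 10 were below 0 in testes 1 and 3, against 37.9%. Without testis 2, 4 fell, namely Cpt2 and the genes of the thiolase Acaa2, the enoyl-CoA hydratase Echs1 and the electron carrier subunit Etfa, and none rose, against 10.0% lower and 7.51% higher over all tested probes. In the MEHP channel Cpt2 and Acaa2 reached a level well above background on 2 of the 6 arrays each and Etfa on none. These 3 thus entered the test through the vehicle channel, which reached this level on more arrays. The count of falls is a description. For Acaa2, which cleaves medium and long chains, the mean was -1.77 ± 0.67 (SD, n = 3; adjusted p = 0.0601 by limma) with 3 testes and -1.92 without testis 2 (adjusted p = 0.0111 by limma). Its second probe was near these values in testes 1 and 3, at -1.95 and -2.18, and at 0.35 in testis 2. Echs1, which adds water to the double bond, averaged -1.69 ± 0.69 (SD, n = 3; adjusted p = 0.0723 by limma), with the 2 hybridizations of testis 3 both at -1.98. Etfa averaged -1.51 ± 0.93 (SD, n = 3; adjusted p = 0.116 by limma), no MEHP signal well above background on the 6 arrays, and hybridizations of opposite sign in testis 1 (-1.98 and 0.84). Etfa was past 1.5-fold at 1 µM, at -1.48 and -1.09, as was the second probe of Acaa2, at -0.87 and -1.29, but not its brighter probe, at -0.51 and -0.46.

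The highest mitochondrial means were those of Etfb, the partner subunit of Etfa, and Hadha, the partner subunit of Hadhb. Etfb was at 0.62, -1.03 and 1.18 in the 3 testes (mean 0.25 ± 1.15, SD, n = 3; adjusted p = 0.862 by limma). Hadha was at 0.32, -0.80 and 0.52 (mean 0.01 ± 0.71, SD, n = 3; adjusted p = 0.995 by limma). A dimmer probe of Hadha gave -0.17, -1.10 and -1.20, so the 2 tested probes of this gene disagreed in testes 1 and 3.

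Of the 23 peroxisomal genes on the array, 12 were tested at 10 µM and 10 were not well above background in either channel on any of the 8 arrays. None of the 12 passed with 3 testes, against 2.24% of all tested probes, or without testis 2, against 17.5%. Of the 12, 5 were below 0 in each testis, against 36.2%, and 5 were below 0 in testes 1 and 3, against 37.9%. The thiolase Acaa1a was among the 2 genes with the highest means, at 0.08 ± 0.69 (SD, n = 3; adjusted p = 0.967 by limma). The lowest means were those of Ech1, an isomerase of unsaturated chains, at -1.34 ± 1.19 (SD, n = 3; adjusted p = 0.174 by limma), and the racemase Amacr, at -1.07 ± 0.79 (SD, n = 3; adjusted p = 0.302 by limma). Ehhadh, the peroxisomal enzyme known for its large induction in rodent liver, was listed at a ratio of 0 in each testis, without usable signal.

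Over testes 1, 2 and 3, the median ratio of the peroxisomal genes tested was 0.01, -1.45 and -0.19, and that of the mitochondrial genes was -0.07, -1.67 and -0.76. Over all tested probes it was 0.09, -1.13 and -0.20. The peroxisomal median was thus above the mitochondrial one by 0.08, 0.22 and 0.57 in the 3 testes and by 0.17 at 1 µM. Over the means of the 3 testes the difference was 0.09, and it turned to -0.03 with first hybridizations alone and to -0.12 with MEHP on Cy3 on all arrays. With normexp background correction and loess normalization the difference was 0.03, and with loess without background correction it was 0.01. The values overlapped widely within each testis, and genes of 1 testis are not replicates. Medians over Leydig and Sertoli cell markers were also low at 10 µM, where 5 of 8 Leydig and 6 of 8 Sertoli markers were tested. The medians of their means were -1.31 and -0.87, against -0.77 for the mitochondrial genes and -0.42 for all tested probes. Of these markers, 3 of 5 and 5 of 6 were below 0 in each testis, against 36.2% of all tested probes. The Leydig markers Star and Scarb1 were at 1.27 and 1.46 in testis 1 but below 0 in testes 2 and 3. The Sertoli marker Sox9 was at 1.10, -1.29 and 0.41 in testes 1 to 3. At 1 µM, 3 of 6 Leydig markers were counted as higher and 2 as lower, against 4.05% and 2.96% of 13174 probes. The part of the markers in the values of the enzymes was not tested.

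**Figure D4:**
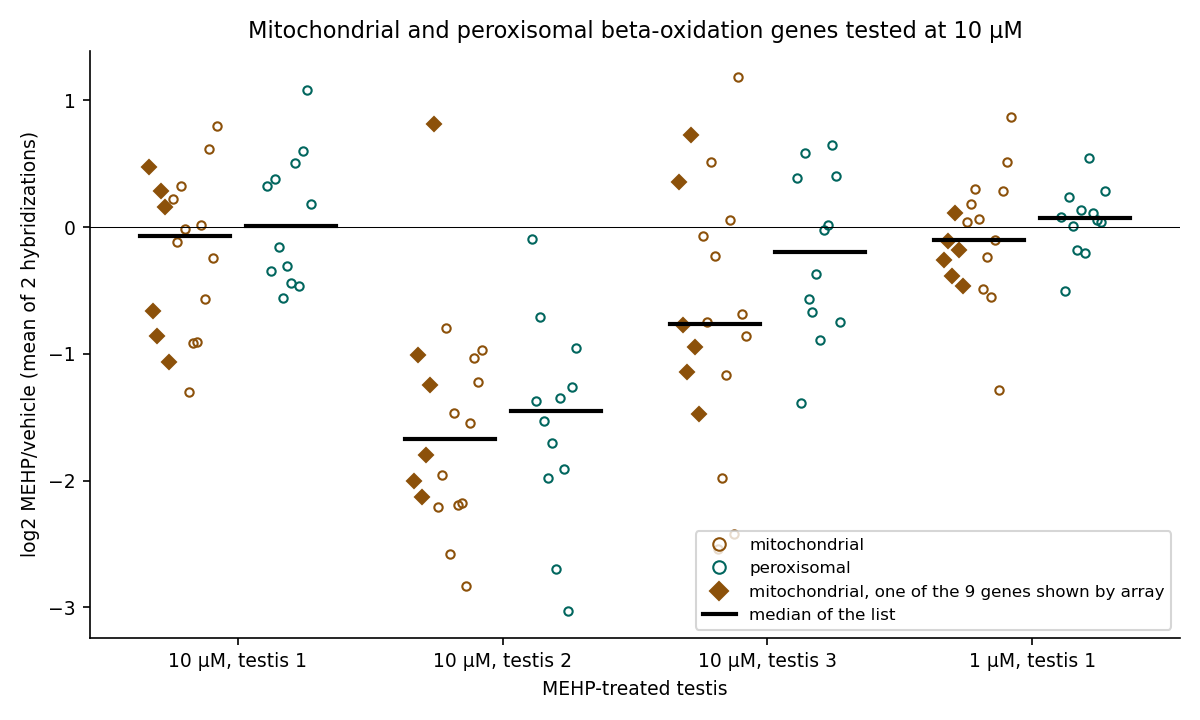
Log2 MEHP/vehicle (mean of the 2 hybridizations) of the 18 mitochondrial and 12 peroxisomal genes tested at 10 µM, in each MEHP-treated testis, with a bar at the median of each list and diamonds for the 6 tested enzymes described above. The peroxisomal bar lies above the mitochondrial bar by 0.08 to 0.57 at 10 µM, and the points of the 2 lists overlap in every testis.

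Around the receptors themselves, few genes could be read. Of 10 receptor and cofactor genes on the array, 7 were not well above background on any array, among them Ppard and the receptor partners Rxra and Rxrb, and the coactivators Ppargc1a and Ppargc1b. The 3 tested were the receptor partner Rxrg, the corepressor Ncor1 and the coactivator Ncoa2, and none passed with 3 testes. Without testis 2, Rxrg rose by a mean of 1.22 (adjusted p = 0.0336 by limma, n = 2). Ncor1 rose by 1.33 (adjusted p = 0.0228 by limma, n = 2), where 7.51% of all tested probes rose. In testis 2 these genes were at -0.92 and -2.63. Each channel of Rxrg was well above background on just 2 of the 6 arrays at 10 µM. Its repeat hybridization gave the higher value in each testis. The values were 0.375 and 1.498 in testis 1, 0.193 and 2.802 in testis 3, and 0.224 and 1.925 at 1 µM. The rise of Rxrg thus rests largely on the repeats. The other tested Ncor1 probes had means between 0.05 and 0.21 without testis 2, and the other Rxrg probe was not tested. Ncor1 was past 1.5-fold at 1 µM, at 0.87 and 1.21, where 4.05% of probes were counted as higher. Ncoa2 was at 0.54, -0.30 and 0.86 (mean 0.37 ± 0.60, SD, n = 3; adjusted p = 0.787 by limma).

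Of 24 known PPAR target genes on the array, 12 were tested at 10 µM, none rose and 1 fell, Fabp3, the fatty acid-binding protein of heart muscle, and the counts without testis 2 were likewise 0 and 1. Of all tested probes 1.87% fell and 0.373% rose. Fabp3 was at -1.94, -1.13 and -2.70 in testes 1 to 3, and the 2 hybridizations of testis 2 differed in sign, at -2.40 and 0.15. At 10 µM its vehicle signal was well above background on each of the 6 arrays and its MEHP signal on 2, so it entered the test through the channel where it is high. Other targets at the ends of the list were Creb3l3, a liver transcription factor, at 0.98 ± 1.44 (SD, n = 3; adjusted p = 0.359 by limma) with hybridizations of opposite sign in testes 1 and 3, and the carnitine carrier Slc25a20, at -0.94 ± 0.93 (SD, n = 3; adjusted p = 0.374 by limma). The targets Cyp4a1, Cyp4a3, Pdk4, Cd36, Fabp1 and Fabp4 were not well above background on the arrays at 10 µM. The medians over the 12 were -0.07, -1.07 and -0.13 in testes 1 to 3, against 0.09, -1.13 and -0.20 over all tested probes.

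The pattern of each enzyme over the 4 testes was set beside those of 7139 probes with gene names, by the Euclidean distance of their log2 ratios. The nearest to Acadl were Ssna1_predicted (0.13), RGD1309846_predicted (0.17) and Dci, the array's name for Eci1, a mitochondrial enzyme of the same pathway, at a distance of 0.18, with ratios of -0.91, -2.17 and -1.17 at 10 µM and -0.55 at 1 µM. The nearest to Acadm was Krim1 (0.06), to Acads RGD1562991_predicted (0.19), to Cpt1a LOC685894 (0.13) and to Cpt2 Gamt (0.46), and among 7138 probes the nearest to the brighter Acadvl probe was siat7D (0.16). The distance for Cpt2 was the widest of these. The 4 testes share 1 control pool, and the distances are a description.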

How the data were processed

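Agilent Whole Rat Genome arrays (8) carried RNA of 1 testis at 1 µM and 3 testes at 10 µM MEHP, each on 2 arrays against a pool of vehicle-treated testes. Images were extracted with Agilent Feature Extraction, version 9.1 per the labels. The deposited log10 ratios of red over green were background-subtracted and dye-normalized within arrays by the authors, and come with deposited errors and p-values. The deposited signal values are the processed signals, and the deposited intensity values are the mean and background signals of each dye. The score and fold-change lists that the authors deposited, with p-values, were not used.

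Ratios were turned to log2 of MEHP over vehicle, outlier spots were left out, and values were averaged first over the spots of a probe, then over both arrays of a testis. Probes well above background in 1 channel on at least 3 of 6 arrays (10 µM) or 1 of 2 (1 µM) were tested or counted, 9913 and 13174 of 41012. The 3 testes were tested against 0, two-sided, with limma 3.58.1 (lmFit, eBayes) in R 4.3.3, with p-values adjusted by Benjamini and Hochberg's method over the tested probes. The pool is 1 control sample, so the spread between control testes is left out. The brightest probe stood for a gene. The named genes were all members and, of each further list, the genes past the threshold with or without testis 2 and the 2 highest and 2 lowest means, of which 1 gene is not reported here. Members and lists were chosen with earlier results of these data known. Alternatives covered background, normalization, centring, filters, outlier spots, single hybridizations, each testis left out, dye orientation, pool spread, trend, a random testis block, the slide as a block, an error-weighted mean, other probes and a 2-fold limit. The fit was tested on simulated data. By accession, 10735 probes matched a GRCr8 gene table, used for names. Figures were made in matplotlib 3.10.9 (Python 3.11.15). Arrays carry no counts, and their number limits the precision.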

Additional observations from a re-analysis of the deposited data

How the results depend on the processing

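The count of 0 of 6 enzyme genes called at 10 µM became 5 under the error-weighted mean over arrays, which treats the 6 arrays as independent and called 5701 probes, and it lay between 0 and 1 when each testis was left out. Each other alternative run left it at 0. The 222 probes called at 10 µM became 0 with the normexp correction, without background correction, without a filter on dim probes, with the filter on both channels, with first hybridizations alone, with MEHP on Cy3 on all arrays, with a spread for the control pool, with the testis as a random block and with the slide as a block. They became 21 with a trend and 106 after centring, and lay between 0 and 1741 when each testis was left out, 0 without testis 1 or 3. The cause was not tested.

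The mean of Acads changed sign to 0.065 after centring, 0.24 under the error-weighted mean, 0.18 without background correction, 0.15 with normexp and 0.42 without testis 2, within a range of -0.82 to 0.42 over the testes left out. In the same order the brighter Acadvl probe changed to 0.19, 0.47, 0.088, 0.077 and 0.51, within a range of -0.75 to 0.51 over the testes left out. The dimmer Acadvl probe changed to 0.068 after centring and to 0.63 with repeat hybridizations alone, and Acadm to 0.10 with MEHP on Cy3 on all arrays. Acadl, Cpt1a and Cpt2 kept their signs under each of the alternatives run for them, but not their sizes. With normexp they were at -0.46, -0.088 and -0.16, without background correction at -0.46, -0.066 and -0.16, after centring at -0.92, -0.22 and -0.12, and with MEHP on Cy3 on all arrays at -0.12, -0.42 and -0.06. The difference between the peroxisomal and mitochondrial medians of the means over testes, 0.09, became 0.85 without the filter, and -0.03 with first hybridizations alone and -0.12 with MEHP on Cy3 on all arrays. It shrank to 0.03 with normexp and to 0.01 without background correction. With MEHP on Cy3 on all arrays, 1 of the 7 genes at 1 µM passed 1.5-fold. The median of all tested probes moved from -0.42 to -0.04 with normexp. No paired analysis was possible because the testis at 1 µM has no partner at 10 µM and the vehicle testes were pooled. Dim signals limit Hadhb, Ppara and Pparg at both doses, and every value of testis 2.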
